A study of Mus musculus with 11 samples.

Results

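Infiltrating monocytes and macrophages are blood-derived phagocytes that enter the central nervous system in experimental autoimmune encephalomyelitis (EAE), a disease resembling multiple sclerosis that follows immunisation of mice with a myelin peptide. They were taken from single cells of mouse cerebral cortex by the number of unique molecular identifiers (UMIs, each marking 1 captured transcript) of 14 genes. A cell passed the gate when it held at least 6 UMIs of Plac8, Ly6c2, Chi3l3 and Lgals3 together and at least 3 of Lyz2. It could hold at most 2 UMIs of the microglia genes Tmem119, P2ry12 and Siglech, at most 3 of the perivascular macrophage genes Pf4, Mrc1 and Lyve1, at most 1 of the T cell genes Cd3d and Cd3g, and at most 1 of the neutrophil gene Retnlg. Of 16418 cells kept in the 2 EAE libraries 1595 passed, 852 in EAE 1 and 743 in EAE 2, out of 50625 cells kept in the whole series. They were split by the UMIs of Ly6c2, which encodes the Ly6C surface protein of circulating monocytes, into 1217 Ly6c2-high cells (3 or more UMIs), 202 Ly6c2-intermediate cells (1 or 2) and 176 Ly6c2-zero cells. The gate and the split use measured values of these cells, so the levels of the 14 genes are described without a p-value. Counts of gene lists leave these genes out. Totals and shares of genes called over all genes tested include those of them that passed the filter on low counts.

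Classical monocytes leave the bone marrow through the chemokine receptor CCR2, carry high Ly6C and enter inflamed tissue, where they can lose Ly6C and become macrophages or cells with features of dendritic cells. Non-classical monocytes, with little Ly6C, patrol vessels and depend on the nuclear receptor NR4A1. Resident microglia and perivascular macrophages (PVMs) are instead long-lived cells settled before or around birth, and at the peak of EAE all of these cells lie side by side in the tissue.

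All mice were of the C57BL/6 strain. EAE was induced in female mice of 7–11 weeks with 150 ul of MOG35-55 peptide at 0.75 mg/ml in complete Freund's adjuvant, pertussis toxin (100 ul at 2 ug/ml, intravenous) was given at immunisation and again on day 2, and cells were taken at the peak of disease. Mice were perfused with cold saline before dissection, and meninges were dabbed off. The other libraries came from mice without EAE: 4 juvenile libraries (postnatal day 10), 3 adult libraries (7–11 weeks) and 2 aged libraries (18 months). Tissue of 3 mice was pooled for each EAE and aged library and of 6 mice for each adult and juvenile library, so no value belongs to 1 animal. The EAE libraries held 34326349 and 34123281 UMIs and the others 15755504 to 23425535. Nothing states that EAE 1 and EAE 2 came from separate animals. With the library as a block, p-values measure only how far differences between populations vary between these 2 libraries, which may be technical. That spread was estimated over all 5 populations of the fit and partly from other genes. EAE 1 and EAE 2 share 125 of 8525 and 8283 cell barcodes, and other pairs of libraries share 13 to 85 of fewer barcodes, such as Aged 2 and EAE 2 with 85 of 5508 and 8283. Set against the spread between cells, the infiltrating cells of the EAE libraries differed little, with a mean squared z of 1.27 over genes and 6.75% of genes outside the range that holds 95% of a normal spread. Their summed counts differed by more than counting error, with a chi-square per degree of freedom of 2.57, against 1.66 in microglia. The EAE libraries were kept as 2 replicates because the labels list them as separate samples. Microglia (1027 and 1047 cells), PVMs (129 and 135) and endothelial cells (3676 and 3543) of the same libraries were gated for comparison. Each had to hold at least 6 UMIs of its own marker genes. Microglia and PVMs could also hold at most 2 UMIs of Plac8, Ly6c2, Chi3l3 and Lgals3 together. Cells of these types with more UMIs of those genes were therefore left out.

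The label was checked against genes the gate did not use. Ccr2 and Hp, both genes of blood monocytes, were present in every class of infiltrating cells and near 0 or low in microglia, whereas the microglia gene Sall1 was near 0 (values below), which goes with the name. Not every monocyte and macrophage gene was highest in infiltrating cells, as Csf1r was higher in microglia and F13a1 in PVMs (values below). The low level of Sall1 follows partly from the gate, which leaves out cells with microglia genes. Ly6c2-high cells, the largest class, made up 75.7% (95% exact binomial interval 72.7 to 78.5) of the infiltrating cells in EAE 1 and 77.0% (73.8 to 80.0) in EAE 2, intermediate cells 12.3% and 13.1%, and Ly6c2-zero cells 12% and 9.96%. Intervals of shares cover counting error only. The median infiltrating cell held 65 UMIs of the 4 marker genes in EAE 1 and 64 in EAE 2, while 33 and 31 cells ended at 4 UMIs, 31 and 17 at 5, just outside the limit, and 16 and 11 cells at 6, just inside. Plac8, an intracellular protein of myeloid cells, was detected in 92.4% and 93.1% of infiltrating cells, Lgals3, the galectin of activated macrophages, in 98.6% and 98.5%, and Chi3l3, the chitinase-like protein Ym1, in 65.5% and 65.1%. The same genes had a UMI in 24.2% and 23.8%, 12% and 11.6% and 8.57% and 7.16% of microglia, and in 14.9% and 12.7%, 13.5% and 12.1% and 7.40% and 6.44% of endothelial cells. These genes made the gate and the shares were not thinned, so they describe the cells and are no test. The shares in microglia are also held down by their gate, which allowed at most 2 UMIs of the 4 marker genes. Infiltrating cells were deep, with a median of 5995.5 and 6074 UMIs per cell against 3345 and 3476 in microglia and 2374 and 2438 in endothelial cells. Scrublet called 34 of them (3.99%) and 21 (2.83%) doublets, against 2.49% and 2.46% of all kept cells in the same libraries and 5.26% and 4.01% of microglia.

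In libraries the gate was not made for it took far fewer cells. The gate passed 10.2% (9.59 to 10.9) of kept cells in EAE 1 and 9.18% (8.56 to 9.83) in EAE 2. In adult libraries the shares were 0.157%, 0.529% and 0.668%, in juvenile libraries 0.336%, 0.274%, 0.528% and 0.511%, and in aged libraries 0.844% and 0.821%. Both EAE libraries lay above every other library, and both aged libraries above every adult and juvenile one. The kind of cell that passed differed as well: Ly6c2-high cells were 29 of 43 (67.4%) and 21 of 39 (53.8%) passing cells in aged libraries, but 2 of 5, 3 of 20 and 6 of 26 in adult libraries and 0 to 31.8% in juvenile ones. No test was made, because the gate was chosen on the EAE libraries.

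**Figure D1:**
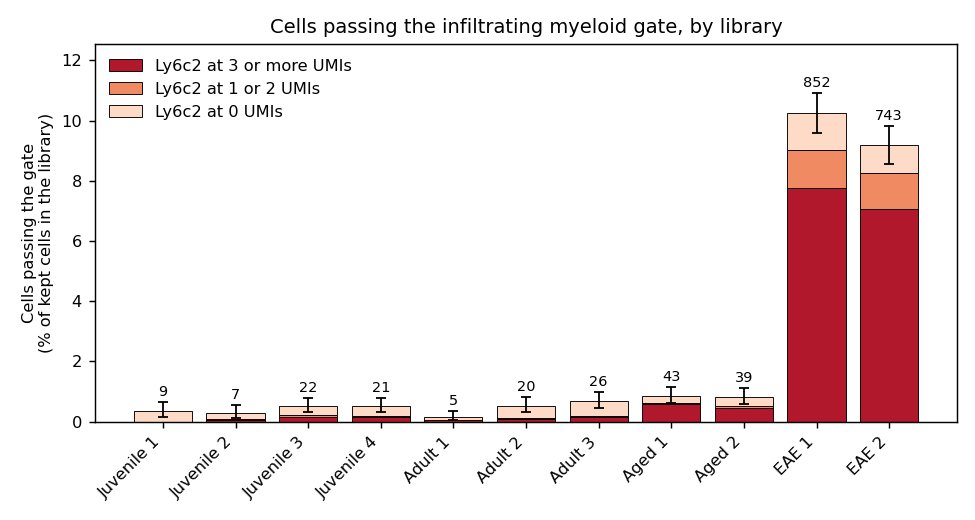
Share of kept cells that pass the gate in each of the 11 libraries (percent of kept cells, stacked by Ly6c2 class, with the 95% exact binomial interval of the total and the number of cells above each bar). EAE 1 and EAE 2 stand at 10.2% and 9.18%, mostly Ly6c2-high cells, and no other library exceeds 0.844%.

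For tests, UMIs were summed over each population in each EAE library (high, intermediate and zero infiltrating cells, microglia and PVMs) and compared with edgeR's quasi-likelihood test with the library as a block. Levels below are CPM, the UMIs of a gene scaled to a common total over the 8176 genes tested and adjusted for composition, given for EAE 1 and then EAE 2. Differences are on the log2 scale with an approximate standard error (SE), the difference divided by the square root of the test's F statistic. Like ratios of difference to SE can go with unlike adjusted p-values, as for Arg1 and Treml4 below. A gene was called at a p of 0.05 after Benjamini-Hochberg adjustment over all genes tested. Levels of different genes are not corrected for transcript length or capture, so genes are compared across populations and not with each other.

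Most classical monocyte genes were higher in Ly6c2-high cells, and most dendritic cell genes tested were higher in Ly6c2-zero cells (13 of 16 and 7 of 10, below). Between the classes 638 genes were higher in Ly6c2-high cells (7.80% of those tested) and 821 lower (10.0%), together 1459 (17.8%). Choroid plexus transcripts, however, went with the split. Ttr, Folr1, Kcnj13 and Clic6, genes of choroid plexus epithelium, summed to 7271 and 9783 CPM of all UMIs in Ly6c2-high sums but 111132 and 85933 in intermediate and 76887 and 65123 in Ly6c2-zero sums. The median cell of every class held only 27 to 29 such UMIs, and a few cells carried much more. Leaving out cells with 2 or more UMIs of Folr1, Kcnj13 and Clic6 kept 96 of 102 and 70 of 74 Ly6c2-zero, 94 of 105 and 91 of 97 intermediate and 635 of 645 and 561 of 572 Ly6c2-high cells. Without the cells left out, 298 of 6965 genes were higher (4.28%) and 304 lower (4.36%) in Ly6c2-high cells, of which 293 and 303 were outside the gate. Of the genes called with all cells, 265 of 638 were called higher and 151 of 821 lower there too. With cells carrying endothelial, B cell, NK cell or dendritic cell markers left out as well, 174 of 5738 genes were higher (3.03%) and 219 lower (3.82%). That kept 71 of 102 and 45 of 74 Ly6c2-zero and 434 of 645 and 402 of 572 Ly6c2-high cells. The part of these smaller numbers of cells in calls lost there was not tested. The part of the choroid plexus transcripts in the remaining differences was not tested. Below, a gene is described as higher or lower in both settings where it was called with all cells and also without the choroid plexus marker cells. Markers of endothelial cells, neutrophils, B cells, T cells, oligodendrocytes and red blood cells were not called in either direction in this comparison, while of 3 genes of natural killer (NK) cells Gzma was lower in Ly6c2-high cells. Markers of PVMs outside the gate (5 genes) summed to 301 and 298 CPM of all UMIs in Ly6c2-high and 149 and 113 in Ly6c2-zero cells, against 4219 and 4090.4 in PVMs, and 44.8% and 46.3% of Ly6c2-high but 17.6% and 18.9% of Ly6c2-zero cells held 2 or more of their UMIs. Of these genes F13a1, which is also on the classical monocyte list, was called higher in Ly6c2-high cells and Folr2 lower, and their part in other results was not tested. Median depth was 5975 and 6165.5 UMIs per Ly6c2-high and 6154.5 and 5836 per Ly6c2-zero cell.

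Of the gate's own genes, Plac8 lay at 7184 and 6541 CPM in Ly6c2-high and 2196 and 2060.3 in Ly6c2-zero cells, Chi3l3 at 3722 and 3722 and 699 and 509, and Lgals3 at 3189.6 and 3040.4 and 2086 and 1790.1. Ly6c2 itself was 3842 and 3619 CPM in Ly6c2-high and 194 and 219 in intermediate cells. A Ly6c2-zero cell had to reach 6 UMIs through the other 3 genes alone, so these levels follow partly from the rule.

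Classical monocyte genes were higher in Ly6c2-high cells in 13 of 16 cases and lower in none, with a median log2 difference of 1.37 against -0.00165 over all genes, and the count was again 13 without the choroid plexus marker cells (median 1.05). With cells of other-type and dendritic cell markers also left out it was 9 of 15 (median 1.08). Hp, which encodes the haemoglobin-binding protein haptoglobin (chromosome 8, 109575128 to 109579172, GRCm38), stood at 907 and 894 CPM in Ly6c2-high cells, 221 and 179 in intermediate, 187 and 164 in Ly6c2-zero cells and 12.2 and 9.46 in microglia. Both Ly6c2-high sums were above every other sum, and the intermediate and Ly6c2-zero sums overlapped. The difference from Ly6c2-zero cells was 2.35 ± 0.13 (edgeR adjusted p = 1.1e-12), and 2.05 without the choroid plexus marker cells. Thbs1, the matrix protein thrombospondin 1, followed the same order at 1027 and 1054, 466 and 542 and 309.8 and 435 CPM (1.51 ± 0.12, edgeR adjusted p = 6.4e-10). Ccr2, the receptor that brings monocytes out of the marrow and into tissue, differed least of these, at 386 and 333 against 197 and 200.4 CPM (0.86 ± 0.13, adjusted p = 2.4e-05), and at 0.52 (adjusted p = 0.0057) without the choroid plexus marker cells. It missed the threshold when cells with endothelial, B cell, NK cell or dendritic cell markers were also left out (0.44, adjusted p = 0.052). All 3 classes thus kept Ccr2 in both libraries, against 4.47 and 7.10 CPM in microglia. Mgst1 (microsomal glutathione transferase), F13a1 (coagulation factor XIII), Ms4a4c, Ifitm6 and Lyz1 (lysozyme 1) were also higher in Ly6c2-high cells in both settings. With the further exclusions Ifitm6 was not called (0.45, adjusted p = 0.11) and Lyz1 was too low to be tested. Vcan, the proteoglycan versican, had 305 UMIs in Ly6c2-high cells and 3 in Ly6c2-zero cells, a ratio of levels of 15.7 (95% counting interval 5.32 to 76.6). S100a4, S100a6 and Gpr35 were not called, and S100a4 lay at 463 and 442 and 567 and 412 CPM.

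Besides this list, the 10 genes with the largest difference toward Ly6c2-high cells (at least 50 CPM there) were Elane, Gm15056, 1100001G20Rik, Prtn3, C3, Nos2, Ly6i, Fpr2, BC094916 and Hp, and all 10 were also called without the choroid plexus marker cells. With cells of other-type and dendritic cell markers also left out, 9 of the 10 were called, all but Elane. C3, the central complement component, was 218 and 224 CPM against 43.4 and 29.3 (2.56 ± 0.20, edgeR adjusted p = 1.0e-09). Fpr2, a receptor for formylated peptides that guides phagocytes, was 180.1 and 161 against 34.1 and 31.5 CPM (2.38 ± 0.22, adjusted p = 8.4e-09). Ly6i, a close relative of Ly6c2 in the same gene cluster, was 637 and 545 against 127 and 78.8 CPM, but reads of such similar genes may be shared between them in the authors' counting. Prtn3 and Elane encode serine proteases of granules made in bone marrow precursors. Prtn3 stood at 155 and 186 CPM in Ly6c2-high and 17.0 and 31.5 in Ly6c2-zero cells and was found in 189 of the 645 Ly6c2-high cells of EAE 1. Elane, in contrast, came mostly from 1 cell per library, which held 106 of 123 UMIs in EAE 1 and 358 of 438 in EAE 2. Its level was 33.3 and 130.4 CPM with none in Ly6c2-zero cells, at least 28.9-fold higher when set against a floor of 3 UMIs over the group, and it was no longer called without the library block (adjusted p = 0.31).

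The calls of MHC class II genes, which serve the presentation of peptides to CD4 T cells, changed when the choroid plexus marker cells were left out. That exclusion took the Ly6c2-zero sums from 697188 to 546739 UMIs in EAE 1 and from 470968 to 381062 in EAE 2. It moved genes outside this list by a like amount, such as Hp from 2.35 to 2.05, C3 from 2.56 to 2.22 and Mgl2 from -4.24 to -4.54, but did not move Pkm (below). The change was thus not particular to MHC class II genes. With all cells, 4 of 10 were lower in Ly6c2-high cells and 1 was higher (median -0.08). Without the choroid plexus marker cells 9 of 10 were lower and 1 higher (median -0.40, against 0.02 over all genes). Over all genes tested 10.0% were lower and 7.80% higher with all cells, and 4.36% and 4.28% without those cells. With all cells the count of 1 higher class II gene was thus near the share over all genes. H2-Aa, the class II alpha chain, stood at 11019 and 10968 CPM in Ly6c2-high, 9939 and 10871 in intermediate and 11967 and 10670.5 in Ly6c2-zero cells, which overlapped. Without the choroid plexus marker cells it was 11325 and 11539 in Ly6c2-high and 15927 and 13429.8 in Ly6c2-zero cells, with no overlap. The difference changed from -0.04 ± 0.07 (edgeR adjusted p = 0.75) to -0.36 ± 0.06 (adjusted p = 9.5e-05). H2-DMb2, a subunit of the peptide-loading factor DM, needed no such exclusion, at 50.8 and 45.3 CPM in Ly6c2-high and 175 and 110.3 in Ly6c2-zero cells (-1.60 ± 0.19, adjusted p = 1.4e-06), and -1.93 without those cells. H2-Oa, a subunit of DO, which restrains DM, was 12.2 and 10.7 against 40.3 and 49.5 CPM (-1.94 ± 0.27, adjusted p = 8.3e-06). Ciita, the class II transactivator, was 10.0 and 10.4 against 24.8 and 27.0 CPM (-1.33 ± 0.38, adjusted p = 0.013). For all 3 both Ly6c2-zero sums lay above both Ly6c2-high sums. Cd74, the invariant chain, was 26076 and 25727 against 26689 and 24838 CPM, and its difference moved from 0.01 to -0.31 (adjusted p = 3.5e-05). The 1 gene higher in Ly6c2-high cells in both settings was Ctss, the protease cathepsin S that trims the invariant chain, at 5002 and 5069.7 against 2944 and 3123 CPM.

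The 120 bases before the starts of these genes are shown as a description, with the letters GATTGG, or CCAATC where it is read from the other strand, in capitals. These are the core of the Y box, an inverted CCAAT element known from class II promoters. Of 9 genes looked up in the RefSeq promoter table (GRCm38.p6) 7 were found, and 5 held the letters, compared with 9.67% of 32851 promoters in a window of that length on either strand. The sequences are given 5′ to 3′ on the gene's strand.
H2-Aa, chr17:34287824-34287943, minus strand, letters beginning 49 bases before the start: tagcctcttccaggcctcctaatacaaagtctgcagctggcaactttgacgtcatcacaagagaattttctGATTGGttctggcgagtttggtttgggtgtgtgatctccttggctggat
H2-Eb1, chr17:34305747-34305866, plus strand, 60 and 35 bases before: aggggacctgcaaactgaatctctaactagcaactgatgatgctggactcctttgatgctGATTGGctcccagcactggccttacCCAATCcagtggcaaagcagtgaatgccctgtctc
H2-DMb2, chr17:34145129-34145248, plus strand, 91 bases before: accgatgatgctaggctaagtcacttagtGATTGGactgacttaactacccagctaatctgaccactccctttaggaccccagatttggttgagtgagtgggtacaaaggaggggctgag
H2-Oa, chr17:34092259-34092378, plus strand, 44 bases before: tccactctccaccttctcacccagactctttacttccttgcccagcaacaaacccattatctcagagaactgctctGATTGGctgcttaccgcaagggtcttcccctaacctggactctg
H2-DMb1 held the letters 62 bases before its start, and the H2-DMa and Ctss windows did not hold them. Starts are those of the RefSeq table, and the GENCODE annotation places some of them elsewhere. Among these are H2-DMb2 (34143307) and H2-DMa (34119541), whose windows lie inside the genes as annotated there. The windows of H2-DMb1 (34153072) and H2-Oa (34092340) begin before the start given there and end inside the gene, and that of H2-DMb1 lies almost wholly inside it. The letters are a description of these windows and were not tied to the levels by a test.

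Dendritic cell genes were lower in Ly6c2-high cells in 7 of 10 tested cases and higher in none (median -1.79), and in 8 of 10 without the choroid plexus marker cells, but several rested on few cells. Among all genes tested 10.0% were lower and 7.80% higher with all cells, and 4.36% and 4.28% without those cells. Mgl2, a lectin of type 2 dendritic cells and macrophages, ranked first among the named genes in the size of its difference toward Ly6c2-zero cells. It stood at 5.14 and 1.79 CPM in Ly6c2-high and 77.4 and 54.0 in Ly6c2-zero cells (-4.24 ± 0.37, edgeR adjusted p = 3.9e-08), with no overlap. In EAE 1, 11 of 102 Ly6c2-zero cells carried it and 1 of them held 24 of 50 UMIs. Clec10a, its neighbour and relative, was 28.7 and 22.6 against 72.8 and 72.1 CPM (-1.49 ± 0.23, adjusted p = 2.4e-05). Clec4b1, another C-type lectin, had a UMI in 23 of 102 Ly6c2-zero cells, 36 of 645 Ly6c2-high cells and 2 of 1027 microglia in EAE 1 and stood at 12.4 and 12.5 against 97.6 and 58.5 CPM (-2.70 ± 0.36, adjusted p = 7.3e-05). Ccl17, a chemokine of dendritic cells, was 22.2 and 23.8 against 99.1 and 96.8 CPM, from 11 and 5 Ly6c2-zero cells. Cd209a, the lectin of monocyte-derived dendritic cells, came from 5 cells in each library, and Ccr7, the receptor for migration to lymph nodes, owed 63 of its 66 Ly6c2-zero UMIs in EAE 2 to 1 cell. When cells with 2 or more UMIs of Flt3, Cd209a, Xcr1, Clec9a and Ccr7 were left out, an exclusion that uses Cd209a itself, the Cd209a difference reversed to 2.39 and was not called (adjusted p = 0.74). With cells of choroid plexus, other-type and dendritic cell markers all left out, 3 of 7 genes of the list were still lower and Mgl2 was still called. Cst3, the protease inhibitor cystatin C, was broad rather than rare, at 3035 and 2934 in Ly6c2-high, 4268 and 4654 in intermediate and 5199.6 and 5253 in Ly6c2-zero cells (-0.81 ± 0.06, adjusted p = 9.5e-10). Flt3 was 10.5 and 9.83 against 26.3 and 18.0 CPM with all cells (adjusted p = 0.07) and was called only without the choroid plexus marker cells.

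Further genes lower in Ly6c2-high cells in both settings came from other families. Avpi1 was 36.5 and 35.4 against 146 and 119 CPM (-1.90 ± 0.17, edgeR adjusted p = 7.2e-09). Ccnd2, which encodes cyclin D2, was 26.8 and 24.4 against 92.9 and 85.6 CPM (-1.81 ± 0.21, adjusted p = 5.7e-07). Klrd1 and Klrb1b, lectin-like receptors best known from NK cells, were also lower, Klrb1b at 24.6 and 27.1 against 89.8 and 85.6 CPM and Klrd1 at 12.2 and 5.06 against 65.1 and 54.0. Summed NK cell markers stood beside them at 71.3 and 71.6 CPM of all UMIs in Ly6c2-high and 86.1 and 197 in Ly6c2-zero cells, and their part in the result was not tested. Ffar2, a receptor for short-chain fatty acids, P2ry10 and Ear2, an eosinophil-associated ribonuclease, followed the same direction. The other 7 of the 10 largest differences toward Ly6c2-zero cells with all cells (Slc16a8, Defb11, Sostdc1, Col8a1, Atp1b1, Rdh5 and Snrpn) did not remain: without the choroid plexus marker cells each fell to at most 14.2 CPM in the Ly6c2-zero sums.

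Of 7 non-classical monocyte genes tested 4 were lower in Ly6c2-high cells and none higher (median -0.76), and 4 of 6 were lower without the choroid plexus marker cells. Nr4a1, the nuclear receptor that non-classical monocytes need, was 191 and 192 CPM in Ly6c2-high, 189.7 and 228 in intermediate and 297 and 329 in Ly6c2-zero cells. Both Ly6c2-zero sums were the highest, by -0.70 ± 0.12 (edgeR adjusted p = 9.9e-05) and by -0.99 without the choroid plexus marker cells. Treml4, a marker of that subset, was 4.60 and 3.57 against 20.1 and 20.3 CPM (-2.28 ± 0.59, adjusted p = 0.0073). Cx3cr1, the fractalkine receptor, was 18.7 and 20.8 against 26.3 and 42.8 CPM (-0.76 ± 0.26, adjusted p = 0.047), far under its 664 and 700.5 CPM in microglia. Ace, angiotensin-converting enzyme, was lower at 13.2 and 11.3 against 115 and 113 CPM, and most of its Ly6c2-zero level went with the choroid plexus marker cells, without which it was 31.0 and 19.9. Spn and Cd300e were too low to be tested. Of 10 immediate early and stress genes 2 were higher and 3 lower in Ly6c2-high cells, and 1 and 3 without the choroid plexus marker cells. The shares over all genes, for both lists of this paragraph, were 7.80% higher and 10.0% lower with all cells. Without those cells they were 4.28% and 4.36%. Hspa1a and Hspa1b, which encode the inducible heat shock protein HSP70, and Atf3 were lower in Ly6c2-high cells in both settings, Hspa1a at 557 and 519 against 883 and 1130.3 CPM, while Fos was higher (2471 and 2372 against 1594 and 1646 CPM).

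**Figure D2:**
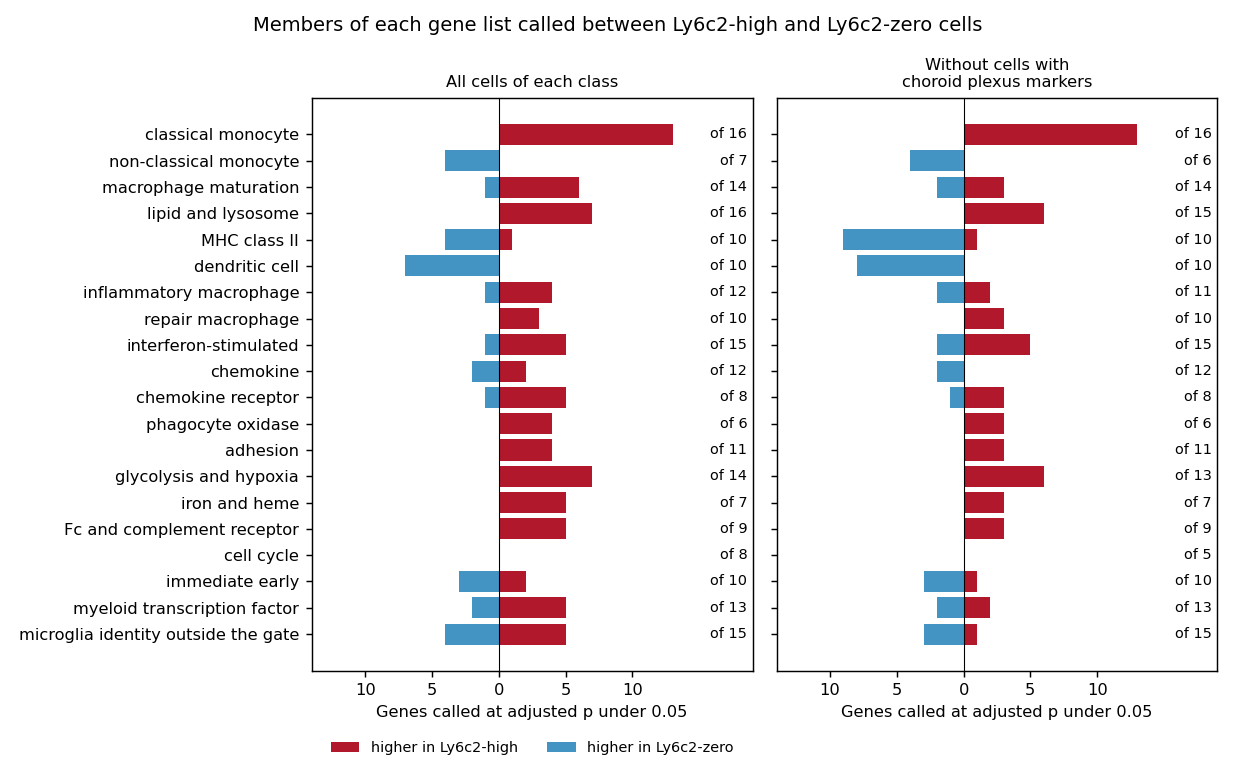
Number of genes of 20 lists called higher in Ly6c2-high (bars to the right) or in Ly6c2-zero cells (bars to the left) by edgeR at an adjusted p of 0.05, with all cells (left panel) and without cells with choroid plexus markers (right panel), and the number tested in each list. Classical monocyte genes keep 13 of 16 to the right in both panels, and MHC class II genes to the left go from 4 to 9 of 10. The median difference of both lists moved downward by a like amount between the panels.

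Of 12 inflammatory macrophage genes 4 were higher in Ly6c2-high cells and 1 lower (median 0.25), and 2 each without the choroid plexus marker cells. Over all genes tested 7.80% were higher and 10.0% lower with all cells, and 4.28% and 4.36% without those cells. With all cells the count of lower inflammatory genes was thus near the share over all genes. Nos2, the inducible nitric oxide synthase, was 65.4 and 87.9 CPM in Ly6c2-high, 28.6 and 21.6 in intermediate and 10.8 and 15.8 in Ly6c2-zero cells (2.54 ± 0.32, edgeR adjusted p = 2.1e-06; 2.21 without those cells). Il1rn, the interleukin-1 receptor antagonist, was 251 and 254 against 118 and 144 CPM (0.97 ± 0.16, adjusted p = 5.4e-05), and both genes were higher in both settings and both libraries. Il1b, the cytokine that it blocks, was 2983 and 2859 against 2147 and 2245 CPM and passed with all cells (0.41, adjusted p = 0.0011) but not without the choroid plexus marker cells (0.09, adjusted p = 0.61). Tnf, tumour necrosis factor, was lower in Ly6c2-high cells at 23.5 and 23.5 against 58.9 and 40.5 CPM (-1.11 ± 0.26, adjusted p = 0.0028). Among repair genes 3 of 10 were higher and none lower: Tgfbi, a matrix protein induced by TGF-beta (2362 and 2362 against 993 and 856 CPM, 1.35 ± 0.10, adjusted p = 6.3e-10), the growth factor Vegfa and the matrix protease Mmp14. Arg1, arginase 1, was 288 and 222 CPM in Ly6c2-high and 26.3 and 110.3 in Ly6c2-zero cells. Its groups did not overlap, but the difference of 2.05 ± 0.51 missed the threshold (adjusted p = 0.062), and in each library 1 Ly6c2-zero cell held most of the UMIs (10 of 17 and 37 of 49). With cells of choroid plexus, other-type and dendritic cell markers left out, Arg1 was called higher (2.31, adjusted p = 0.0059).

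Arg1 and Nos2 compete for the amino acid arginine and are often used as signs of repair and of inflammatory macrophages, so they were also read cell by cell, after thinning each cell to 1500 UMIs. Of Ly6c2-high cells 11.9% (76 of 641) in EAE 1 and 10.2% (58 of 567) in EAE 2 held an Arg1 UMI and 6.55% and 8.64% a Nos2 UMI. Both genes were found in 13 cells (2.03%) and 10 cells (1.76%), Arg1 alone in 63 and 48, Nos2 alone in 29 and 39 and neither in 536 and 470. Ly6c2-zero cells held Arg1 in 2 of 96 and 3 of 70 and Nos2 in 1 of 96 and 1 of 70. For comparison, endothelial cells held Arg1 in 0.403% and 0.160% and Nos2 in 0.774% and 0.610%, at a shallower median depth before thinning, and microglia held Arg1 in 4 of 967 and 1 of 984 and Nos2 in none of these, which allows a share of cells with a UMI of up to 0.310% and 0.305% at 3 counts (exact binomial upper bounds 0.381% and 0.374%). Endothelial cells with up to 91 and 71 UMIs of the 4 marker genes passed their gate, and the source of the UMIs in these cells was not tested. Ly6c2-high shares were above those of microglia and endothelial cells in both libraries. They grow with depth: unthinned, Arg1 was found in 19.8% and 17.1% and Nos2 in 13.8% and 16.6% of Ly6c2-high cells.

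**Figure D3:**
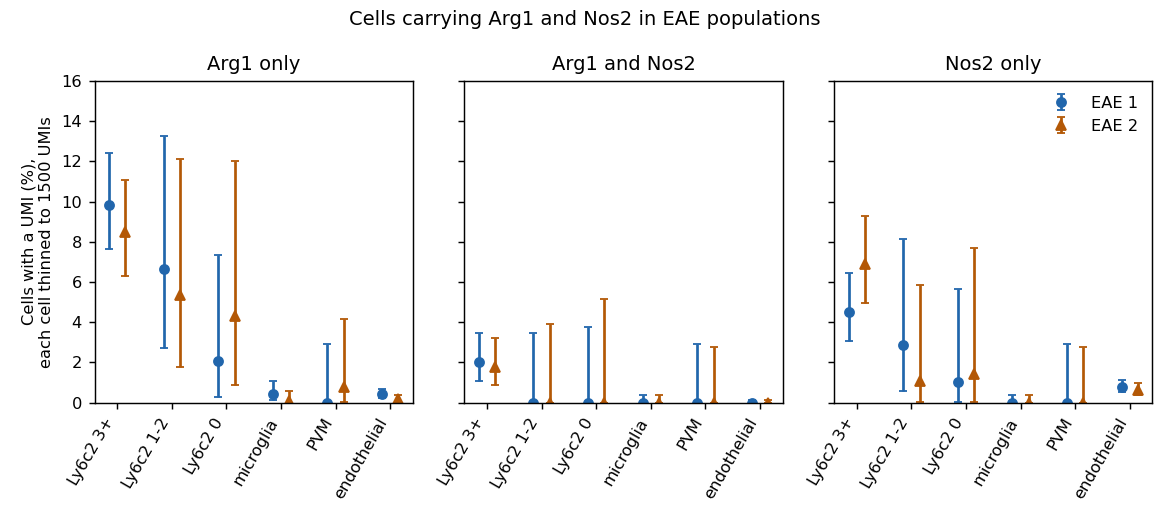
Share of cells (percent, after thinning to 1500 UMIs) with UMIs of Arg1 only, of both genes or of Nos2 only, in 6 populations of each EAE library, with 95% exact binomial intervals. Ly6c2-high cells stand highest for each, with both genes in 2.03% and 1.76% of cells, and microglia are near 0.

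Chemokines and their receptors differed gene by gene. Of 12 chemokine genes 2 were higher in Ly6c2-high cells with all cells (Ccl5 and Ccl6) and 2 lower (Ccl3 and Ccl12), and only the lower pair was also called without the choroid plexus marker cells. Ccl5, a chemokine for T cells and monocytes, was 4922 and 5142 against 1821 and 1479 CPM (1.63 ± 0.27, edgeR adjusted p = 0.019, and 0.075 without those cells). Ccl3, or MIP-1 alpha, was 477 and 606 against 785 and 759 CPM (-0.53 ± 0.10, adjusted p = 6.1e-04). Receptors for chemokines and chemoattractants were higher in Ly6c2-high cells in 5 of 8 cases and lower in 1 (Cx3cr1), and without the choroid plexus marker cells Ccr1, Ccr2 and Fpr2 were still higher. Ccr1 was 351 and 348 against 195 and 182 CPM (0.87 ± 0.16, adjusted p = 3.3e-04). Of 15 interferon-stimulated genes 5 were higher in Ly6c2-high cells and 1 lower with all cells, and 5 and 2 without those cells. Beside the counts of this paragraph, 7.80% of all genes tested were higher and 10.0% lower with all cells, and 4.28% and 4.36% without those cells. With all cells the count of lower interferon-stimulated genes was thus near the share over all genes. Higher in both settings were Ly6a, Gbp2, the transcription factor Irf7 (692 and 629 against 263 and 268 CPM, 1.32 ± 0.12, adjusted p = 8.9e-09) and the ubiquitin-like Isg15. The T cell chemokine Cxcl10 was lower in both (41.1 and 60.2 against 94.5 and 128 CPM, -1.12 ± 0.23, adjusted p = 0.0019).

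A number of metabolic genes were higher in Ly6c2-high cells. Of 14 glycolysis and hypoxia genes tested 7 were higher and none lower (median 0.61), and 6 of 13 were higher without the choroid plexus marker cells (median 0.54). For the counts of this paragraph, the shares over all genes tested were 7.80% higher and 10.0% lower with all cells. They were 4.28% and 4.36% without the choroid plexus marker cells. Pkm, pyruvate kinase, was 1444 and 1412 CPM in Ly6c2-high, 852 and 861 in intermediate and 768 and 768 in Ly6c2-zero cells, with no overlap of Ly6c2-high with either (0.89 ± 0.09, edgeR adjusted p = 1.9e-08; 0.89 also without those cells). Aldoa, aldolase A, was 1731 and 1762 against 945 and 1135 CPM (0.75 ± 0.09, adjusted p = 5.4e-07), and Tpi1, Gapdh, Eno1 and Ldha took the same direction in both settings. Hk2, the first enzyme of the pathway, Slc2a1, the glucose transporter, and the regulator Hif1a were not called. Ferritin heavy chain Fth1, which stores iron, was 23229 and 23217 against 13568 and 14397 CPM (0.73 ± 0.06, adjusted p = 2.3e-09), and haem oxygenase Hmox1 and biliverdin reductase Blvrb were higher in both settings. Of 16 lipid and lysosome genes 7 were higher and none lower (median 0.37), with the cholesterol carrier Npc2 (4446 and 4285 against 2323 and 2382 CPM), the scavenger receptor Msr1, the lipid droplet protein Plin2, Gpnmb, Fabp5 and the protease Ctsl higher in both settings. Trem2, a lipid receptor of phagocytes, was higher with all cells only.

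Some genes of the surface and killing machinery of phagocytes were higher in Ly6c2-high cells as well. All cells gave 4 of 6 subunits of the phagocyte oxidase as higher, among them Cybb (689 and 656 against 383 and 351 CPM, 0.87 ± 0.13, edgeR adjusted p = 2.3e-05), and Cybb, Cyba and Ncf4 were higher in both settings. Fc and complement receptors were higher in 5 of 9 cases, and Fcgr1, Fcgr3 and Fcer1g in both settings. Of 11 adhesion genes 4 were higher, with the hyaluronan receptor Cd44 (333 and 320.4 against 177 and 162 CPM) and the integrin chain Itgb2 among those higher in both settings. Itga4, a chain of the integrin VLA-4 through which leukocytes bind brain vessels, was not called (53.8 and 60.2 against 68.2 and 56.3 CPM). Of 14 macrophage maturation genes 6 were higher and 1 lower with all cells. Beside the counts of this paragraph, 7.80% of all genes tested were higher and 10.0% lower with all cells, and 4.28% and 4.36% without the choroid plexus marker cells. With all cells the count of 1 lower maturation gene was thus near the share over all genes. Csf1r, the receptor for the growth factor CSF1 (456 and 484 against 266 and 329 CPM), and Fcgr1 were higher in both settings. C1qa, a complement component of tissue macrophages, was 1533 and 1664 against 1481 and 1695 CPM and not called. Of 13 myeloid transcription factor genes 5 were higher and 2 lower, and 2 and 2 without the choroid plexus marker cells, with Cebpb higher and Nr4a1 and Bhlhe40 lower in both settings. Ly6c2-high cells with 2 or more UMIs of Mki67, Top2a, Cdk1 and Birc5 numbered 1 of 641 and 3 of 567 after thinning, against 18 of 967 and 19 of 984 microglia.

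Intermediate cells, with 1 or 2 Ly6c2 UMIs, lay between the other classes for most of the genes called between those classes. These genes were picked for their difference between Ly6c2-high and Ly6c2-zero cells in the same sums. That choice by itself favours an intermediate level between them, so the counts below are a description and no test. Genes that were not called were not examined in this way. Without the choroid plexus marker cells and outside the gate, 596 genes were called between Ly6c2-high and Ly6c2-zero cells, and the mean intermediate level was between theirs in 522. It was nearer to the Ly6c2-zero level in 388 (65.1%), in 199 of the 293 genes higher in Ly6c2-high cells and in 189 of the 303 lower ones. Hp, for example, was 933 and 938 CPM in Ly6c2-high, 332 and 226 in intermediate and 248 and 204 in Ly6c2-zero cells. The median intermediate cell held 5993 and 5974 UMIs, and the part of depth in these counts was not tested.

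Against microglia of the same libraries, infiltrating cells of either class differed in many genes, 5457 (66.7%) for Ly6c2-high and 3991 (48.8%) for Ly6c2-zero cells: 2357 genes (28.8%) were higher and 3100 (37.9%) lower in Ly6c2-high cells, and 2048 (25%) higher and 1943 (23.8%) lower in Ly6c2-zero cells. DESeq2 called 1976 higher and 1783 lower in Ly6c2-high and 1795 higher and 1221 lower in Ly6c2-zero cells. The gates of the populations use opposing marker genes, so some of this difference follows from the choice of cells. The choroid plexus genes Ttr, Folr1 and Clic6 were higher in Ly6c2-zero cells. Neutrophil markers summed to 637 and 2279 CPM of all UMIs in Ly6c2-high and 914 and 318 in Ly6c2-zero cells against 154 and 187 in microglia, and NK cell markers to 71.3 and 71.6 and to 86.1 and 197 against 16.5 and 25.3. The part of these markers in the comparison was not tested. All 15 microglia identity genes outside the gate were lower in both classes (identity gene medians -3.98 and -4.05, against -0.15 and -0.07 over all genes). Sall1, the transcription factor of microglia, was 1.35 and 1.79 CPM in Ly6c2-high, 3.10 and 0 in Ly6c2-zero cells and 92.3 and 92.5 in microglia. Gpr34, a lysophospholipid receptor, was 8.65 and 9.83, 10.8 and 13.5 and 531 and 545 CPM (Ly6c2-high against microglia -5.86 ± 0.14, edgeR adjusted p = 2.7e-22). Olfml3, a secreted protein of microglia, was 8.65 and 12.8, 17.0 and 33.8 and 721 and 721 CPM (-6.07 ± 0.16, adjusted p = 4.4e-21). Microglia lay above both classes in both libraries for each. Slc2a5, the fructose transporter, had no UMI in Ly6c2-zero cells, at least 52.3-fold lower than in microglia with a floor of 3 UMIs over the group.

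Classical monocyte genes ran the other way, with 16 of 16 higher in Ly6c2-high cells (median 5.64) and 14 of 16 in Ly6c2-zero cells (median 4.15). F10, the coagulation factor X, was 404 and 416 CPM in Ly6c2-high, 80.5 and 92.3 in Ly6c2-zero cells and 2.73 and 2.84 in microglia (7.17 ± 0.18 for Ly6c2-high cells, edgeR adjusted p = 1.1e-21). Sirpb1c, a member of the signal regulatory proteins, was 477 and 479.8, 309.8 and 223 and 1.98 and 1.42 CPM. Inhba, the activin A subunit, had 2083 UMIs in Ly6c2-high cells and 2 in microglia, a ratio of levels of 1219 (95% counting interval 337 to 10071). Napsa, an aspartic protease, was higher in Ly6c2-zero cells than in microglia at 472 and 389.5 against 2.73 and 4.26 CPM (6.93 ± 0.24, adjusted p = 1.8e-13). The infiltrating levels of all 4 lay above microglia in both libraries. Chemoattractant receptors were higher in 6 of 8 cases in Ly6c2-high cells, Cxcr4, the receptor that retains cells in the marrow, at 329 and 344 against 18.4 and 14.2 CPM. The integrin chains Itga4 and Itgb7 were higher too, Itga4 at 53.8 and 60.2 against 3.97 and 3.08 CPM (3.99 ± 0.20, adjusted p = 2.3e-15).

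Antigen presentation, inflammation and metabolism separated infiltrating cells from microglia in part. Of 10 MHC class II genes 7 were higher and 2 lower in Ly6c2-high cells, and 8 and 2 in Ly6c2-zero cells. H2-Aa was 2910.3 and 3094 CPM in microglia, below both classes (1.87 ± 0.07 for Ly6c2-high cells, edgeR adjusted p = 3.3e-18). The 2 lower class II genes were H2-Oa and Ctss, the latter at 13782 and 14009 CPM in microglia (-1.46 ± 0.07, adjusted p = 4.1e-16). Inflammatory genes were divided: Il1b was 2983 and 2859 CPM in Ly6c2-high cells and 131 and 146 in microglia (4.40 ± 0.10, adjusted p = 2.5e-22), whereas Tnf was 23.5 and 23.5 against 400.2 and 329.5 (-3.95 ± 0.15, adjusted p = 8.9e-18). Il1a, the other interleukin-1, was also lower, at 34.1 and 46.2 against 249 and 249.8 CPM. Cxcl2, a chemokine for neutrophils, was higher (771 and 714 against 28.5 and 29.1 CPM) and Ccl3 lower (477 and 606 against 4711 and 4612 CPM). Nos2 had 537 UMIs in Ly6c2-high cells and 2 in microglia, a ratio of levels of 314 (95% counting interval 86.6 to 2601). Arg1 was 1.74 and 0.946 CPM in microglia and higher in Ly6c2-high cells (7.52 ± 0.62, adjusted p = 2.6e-04). Of 14 glycolysis and hypoxia genes 12 were higher and 1 lower in Ly6c2-high as in Ly6c2-zero cells, with Pkm at 362 and 342 CPM in microglia (2.02 ± 0.08 for Ly6c2-high cells, adjusted p = 2.2e-17), and the 1 lower gene was Hk2. C1qa, at 12115 and 12364 CPM, and Csf1r, at 2401 and 2413 CPM, were higher in microglia, and 10 of 14 maturation genes were lower in Ly6c2-high cells. Apoe, the lipid carrier, was 1 of the 2 maturation genes higher in Ly6c2-high cells (10766 and 10519.5 against 4646 and 4636 CPM, 1.20 ± 0.16, adjusted p = 0.0012).

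**Figure D4:**
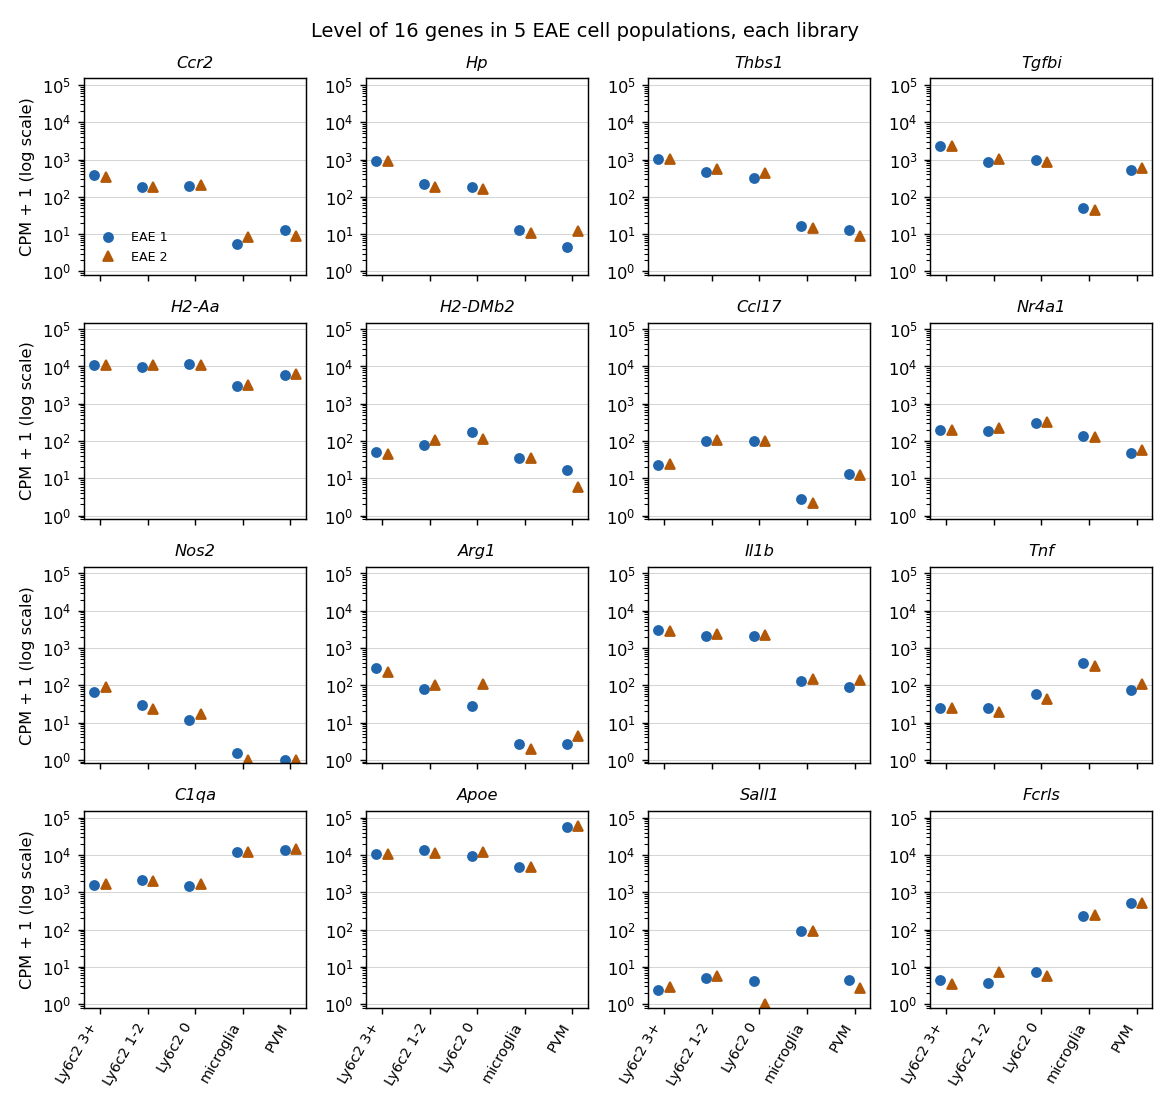
Levels (CPM + 1, log axis) of 16 genes in Ly6c2-high, intermediate and Ly6c2-zero infiltrating cells, microglia and PVMs, with a circle for EAE 1 and a triangle for EAE 2. Hp runs from 907 and 894 CPM in Ly6c2-high to 12.2 and 9.46 in microglia, and Sall1 stands near 92 CPM in microglia alone.

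PVMs were the other macrophages of the tissue. In the mean of the 3 classes 3489 genes (42.7%) differed from PVMs, and 1693 genes were higher (20.7%) and 1796 lower (22.0%) than in PVMs; without the choroid plexus marker cells 1730 were higher and 1709 lower. Choroid plexus markers summed to 7271 and 9783 CPM of all UMIs in Ly6c2-high, 111132 and 85933 in intermediate and 76887 and 65123 in Ly6c2-zero cells against 17213 and 6284 in PVMs. Neutrophil markers stood at 605 and 1788 CPM in infiltrating cells against 150 and 174 in PVMs, NK cell markers at 72.9 and 80.6 against 22.9 and 28.7 and T cell markers at 13 and 9.99 against 82.9 and 82.6, and the part of these markers was not tested. Maturation genes were lower in 13 of 14 cases (median -2.02, against -0.04 over all genes) and 1 was higher. Differences here are of the mean of the 3 classes. Apoe was 10766 and 10519.5 CPM in Ly6c2-high, 13580.2 and 10948 in intermediate and 9239 and 12154 in Ly6c2-zero cells and 57680.5 and 58466 in PVMs (-2.38 ± 0.12, edgeR adjusted p = 2.8e-05). Ccl8, a monocyte chemokine, stood at 23.8 and 33.1 CPM in Ly6c2-high, 252 and 44.7 in intermediate and 107 and 101 in Ly6c2-zero cells and 12880.5 and 10619 in PVMs (-7.28 ± 0.39, adjusted p = 1.6e-04). Cd163, the haemoglobin scavenger, was 2.43 and 2.08, 2.60 and 3.08 and 7.74 and 0 CPM in the same order and 890.5 and 883 in PVMs (-8.14 ± 0.16, adjusted p = 7.2e-24). PVMs were above every infiltrating sum for all 3. Genes with the largest difference toward PVMs included the phospholipase Pla2g2d, ficolin Fcna and the lectins Cd209d, Cd209f, Cd209g and Cd209b, of which Cd209d was not called by DESeq2 (-8.65, adjusted p = 0.063). In the other direction 14 of 16 classical monocyte genes were higher in infiltrating cells (median 2.69), but F13a1 was lower, at 253 and 257 CPM in Ly6c2-high, 92.2 and 109 in intermediate and 86.7 and 58.5 in Ly6c2-zero cells against 1417 and 1266 in PVMs (-3.44 ± 0.10, adjusted p = 2.5e-19). Inflammatory genes were higher in 9 of 12 cases and lower in 2 (median 2.30), and Il1r2, the decoy receptor for interleukin-1, was 489.6 and 453 CPM in Ly6c2-high, 179 and 302 in intermediate and 212 and 286 in Ly6c2-zero cells and 5.11 and 3.26 in PVMs (6.16 ± 0.38, adjusted p = 4.9e-09). MHC class II genes were higher in 8 of 10 cases, with H2-Aa at 6067 and 6222 CPM in PVMs. The gates of PVMs and infiltrating cells use opposing marker genes, Pf4, Mrc1 and Lyve1 among them. Some of these differences therefore follow from the choice of cells. The paper describes PVM subtypes marked by Lyve1 and by MHC class II, and the share of each among these PVMs was not examined.

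The 50 Ly6c2-high cells of the aged libraries allow these cells to be set beside monocytes of brains without EAE, with the limit that age and disease cannot be told apart. No test was made: the aged sums hold 174314 and 174127 UMIs, and the 37 genes outside the gate were picked with EAE values known. CPM in this comparison is of all UMIs, without the adjustment above. Classical monocyte genes in this set mostly had ratios of EAE to aged of 1 or less. Hp was 1015 and 925 CPM in Aged 1 and Aged 2 and 837 and 826 in EAE 1 and EAE 2, and Thbs1 1268 and 867 against 947 and 975. Their ratios of EAE to aged were 0.857 (95% counting interval 0.768 to 0.959) and 0.899 (0.810 to 1.001). The ratios of Ifitm3 (0.933, 0.890 to 0.979) and S100a4 (0.771, 0.665 to 0.897) were also below 1. The libraries overlapped for both, as they did for Thbs1. Ifitm3 was 5869 and 4485 CPM in Aged 1 and Aged 2 and 4980 and 4671 in EAE 1 and EAE 2, and S100a4 665 and 419 against 427 and 408. Vcan had a ratio of 1.54 (0.803 to 3.41), and F10, described above against microglia, had one of 2.81 (2.10 to 3.83). These intervals cover counting error only and not the spread between cells or libraries. Ccr2 was lower in EAE, with a ratio of 0.566 (0.491 to 0.656), at 356 and 308 against 706 and 471 CPM, as was Nr4a1, at 176 and 178 against 631 and 362 CPM. The MHC class II genes H2-Aa, H2-Ab1 and Cd74 were higher in both EAE libraries, with H2-Aa at 10162 and 10138 CPM against 1297 and 844, a ratio of 9.48 (95% counting interval 8.57 to 10.5). Saa3, an acute phase protein of macrophages, was 2259 and 2548 against 0 and 34.5 CPM (ratio 139, 63.9 to 379), and Ccl5 4539 and 4753 against 40.2 and 63.2 (ratio 89.8). Arg1 was 265 and 206 against 0 and 5.74 CPM (ratio 82.6, 14.8 to 3263). Nos2, Il1rn and Cxcl9 had no UMI in the aged cells and were at least 8.16-fold, 27.1-fold and 22.4-fold higher in EAE with a floor of 3 UMIs over the group.

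**Figure D5:**
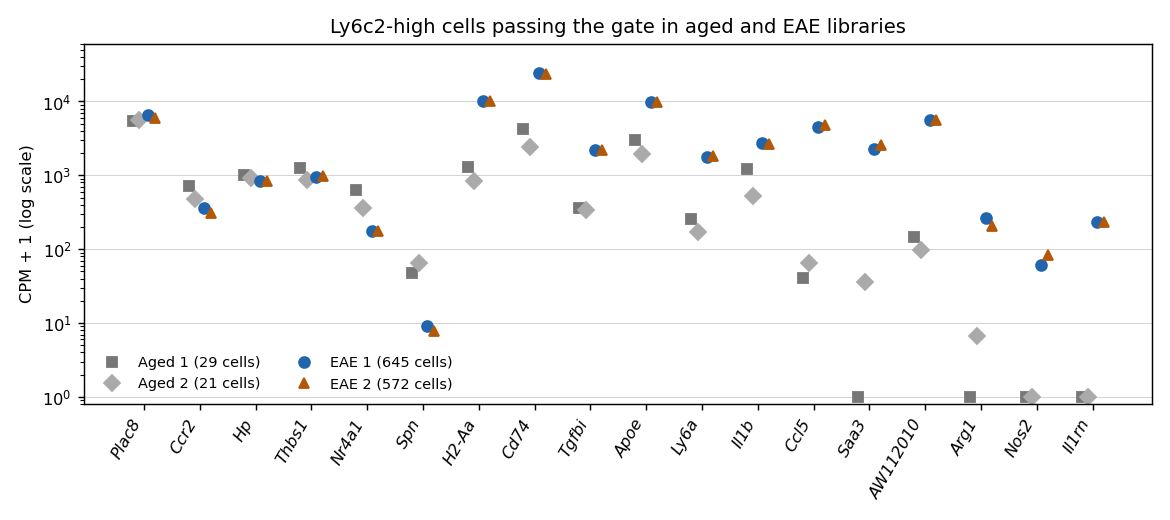
Levels (CPM + 1 of all UMIs, log axis) of 18 genes in the Ly6c2-high cells of Aged 1 (29 cells), Aged 2 (21), EAE 1 (645) and EAE 2 (572). Hp and Thbs1 lie close together in the 4 libraries, while H2-Aa, Saa3, Ccl5 and Arg1 stand higher in both EAE libraries.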

How the data were processed

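Cortical cells were captured with the 10x Chromium system and single-cell 3′ chemistry, and each library's deposited file holds raw UMI counts per gene and cell; nothing was normalized by the authors in these files. As far as the submitters' processing notes tell, reads were aligned with STAR 2.5.3a to mm10 and counted with featureCounts 1.6.1 and UMI-tools 0.5.3. The paper names later versions of each of these tools. Transcripts of one end of each gene are counted, so genes with near-identical ends, such as Ly6c2, Ly6i and Ly6a, may share reads.

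Cells with 501 to 5999 genes and under 25% mitochondrial UMIs were kept, and the gate described above was applied. The members, the gene lists and the comparisons were chosen with earlier results of these data known, so the lists are not independent evidence. UMIs were summed per population and EAE library and tested with edgeR 4.0.16 (R 4.3.3; quasi-likelihood, TMM scaling, low counts filtered, library as a block; 4 residual and 21.5 prior degrees of freedom), with adjusted p by Benjamini-Hochberg. On simulated data a log2 change of 1 was recovered in 37.4% of changed genes for Ly6c2-high against Ly6c2-zero cells and a change of 2 in 89.8%. The simulation drew all populations from 1 shared profile with a dispersion, the spread beyond counting error, of 0.02. The median fitted to the data was 0.00531, so these shares are not the recovery in the data. Doublets were called with Scrublet in scanpy 1.11.5 and kept. Named genes were the 10 with the largest difference in each direction among those called, moving the same way in both libraries and reaching 50 CPM in the higher population, without the gate genes and other-cell markers, plus members of the lists. The same rule without doubted cells added names chosen after values were seen. Shares of cells have exact binomial intervals, and ratios of low counts have exact counting intervals. Alternatives, among them DESeq2 1.42.0, are given in the closing section, and the exclusion of cells with choroid plexus markers was added after seeing the data.
Some genes are not reported here.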

Additional observations from a re-analysis of the deposited data

Results flagged for a closer look

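The gate for infiltrating cells also found cells in the aged libraries, which enter no tested comparison. It passed 0.844% of kept cells in Aged 1 and 0.821% in Aged 2, above the highest adult library at 0.668%. The difference between the aged and adult libraries was not tested.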

How the results depend on the processing

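The number of genes called between Ly6c2-high and Ly6c2-zero cells, 1459 with all cells, fell to 646 within 3000 to 12000 UMIs per cell. It fell to 509 without cells with endothelial, B cell or NK cell markers. Without cells with choroid plexus markers it was 602, and without cells of choroid plexus, other-type and dendritic cell markers 393. The last 2 settings were chosen after seeing the data, and fewer genes were tested in them. Each of these settings also held fewer cells. DESeq2 called 430 genes higher and 584 lower in this comparison. Among the alternatives run, no other total of calls moved by more than 1.5 times, but by direction DESeq2 took the lower calls against microglia from 3100 to 1783 in Ly6c2-high and from 1943 to 1221 in Ly6c2-zero cells, and no filter on low counts took the calls higher in Ly6c2-high than in Ly6c2-zero cells from 638 to 1017. Which direction holds more calls also turned: 638 higher and 821 lower became 1017 and 871 with no filter (Ly6c2-high against Ly6c2-zero cells), 2357 and 3100 became 1976 and 1783 with DESeq2 (Ly6c2-high cells against microglia), 2048 and 1943 became 2116 and 2444 with no filter (Ly6c2-zero cells against microglia), and 1693 and 1796 against PVMs became 1443 and 1406 with DESeq2, 1912 and 1728 with no filter, 1677 and 1582 within 3000 to 12000 UMIs, 1730 and 1709 without cells with choroid plexus markers, 1464 and 1397 without those with other-type markers and 1468 and 1421 with all 3 exclusions. No replicate block, the fit without the pairing of populations within a library, gave 1444 genes for Ly6c2-high against Ly6c2-zero cells, 5467 for Ly6c2-high cells against microglia, 3980 for Ly6c2-zero cells against microglia and 3469 against PVMs; Elane lost its call there (adjusted p = 0.31). Leaving out either library left no replicate for a test, and the number of genes at a log2 ratio of 1 or more then ranged from 1319 to 1486, 2577 to 2586, 2849 to 2903 and 2395 to 2684 in the same order, against 1071, 2522, 2734 and 2380 for the mean of both; without EAE 1 the genes higher in Ly6c2-high than in Ly6c2-zero cells went from 341 to 556. Cd209a reversed without cells with dendritic cell markers, to 2.39 between Ly6c2-high and Ly6c2-zero cells and -1.48 between Ly6c2-zero cells and microglia, and to 1.68 and -1.39 with all 3 exclusions; these exclusions use Cd209a. The share of Ly6c2-high cells with Arg1 rose without thinning to 19.8% and 17.1% and at 3000 UMIs to 15.9% and 13.4%, and with Nos2 to 13.8% and 16.6% and to 9.06% and 12.7%, since thinning removes UMIs by construction. Precision is limited by the 176 Ly6c2-zero cells and the 2 EAE libraries.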
